A study of Homo sapiens with 20 samples.

Results

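H3K27ac was compared between FBXW7-/- (KO) and FBXW7 wild-type (WT) HCT-116 cells, a human colorectal cancer line, when both had been depleted of HDAC4 and exposed to oxaliplatin (OXPT). All 4 libraries came from cells transfected for 48 h with esiRNA against HDAC4 (esiHDAC4, a pool of enzymatically cut interfering RNAs) and treated with 50 µM OXPT for the last 24 h, so FBXW7 status was the variable. Each genotype had 2 libraries, replicates A and B, and 4 of the 16 libraries with lists in the series therefore entered the comparison. The same 3 other settings existed for both genotypes, namely control esiRNA (esiCT) without drug (UNT), esiCT with OXPT and esiHDAC4 without drug. WT and KO cells came from one supplier, and no source used here says whether the KO line is a single clone. The labels mention 3 pooled experiments without tying them to the letters, so the spread between A and B may be partly technical.

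FBXW7 is the substrate-recognition subunit of an SCF ubiquitin ligase that sends MYC, cyclin E, JUN, NOTCH1 and other proteins to the proteasome, and it is recurrently mutated in colorectal cancer. HDAC4 is a class IIa histone deacetylase that acts mainly as a co-repressor of MEF2 and other factors. Acetylation of histone H3 at lysine 27 marks active promoters and enhancers, and long stretches of densely marked enhancers are called super-enhancers (SEs). OXPT is a platinum drug that crosslinks DNA and activates p53 in cells that have it, as HCT-116 cells do.

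The peak lists of the 4 libraries on chromosomes 1 to 22 and X were merged wherever peaks shared at least 1 bp, which gave 33968 regions. A region was WT-only when both WT libraries and neither KO library called it, and KO-only in the opposite case. There were 2025 WT-only regions, or 5.96% of all regions, and 183 KO-only regions, or 0.539%. The SE lists merged into 949 regions, of which 76 were WT-only (8.01%) and 5 were KO-only (0.527%). These counts describe the calls that defined the regions, and no test applies to them. Another 2795 peak regions and 124 SE regions were called in all 4 libraries.

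The 4 lists were of unequal length, and KO replicate B stood apart. WT A held 20136 peaks, WT B 19352, KO A 18343 and KO B 6083. The background pileup implied by the deposited fold and p-values was 2.2 reads in WT A, 2.61 in WT B, 2.89 in KO A and 1.51 in KO B, so KO B was the shallowest library. Over those genome-wide backgrounds the lowest callable fold was 3.58 in KO B and between 3.04 and 3.13 in the others, and where the local background was higher, peaks of lower fold were called too. The number of KO-only regions depended on KO B: without it, 5935 regions were called in KO A and in neither WT library, against 2261 called in both WT libraries and not in KO A. Without KO A, the same counts were 1029 for KO B and 6107 for WT. Without WT A they were 520 KO-only and 9087 WT-only, and without WT B 477 and 9493. SE regions behaved alike, with 75 KO-only and 83 WT-only without KO B, and 20 and 193 without WT A. With each list cut to its strongest 6083 peaks, 571 regions were WT-only and 379 KO-only. After summit reads were scaled to KO B, 1803 regions were WT-only (8.19%) and 163 were KO-only (0.741%). Of the original members, 48.3% of WT-only and 47.0% of KO-only regions remained. Beyond this recount, the part of depth in the calls that KO B lacks was not tested.

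The sequence around the summit is shown for 5 distal regions that carry the descriptions below, 300 bases each on the plus strand of hg38, 5′ to 3′. The first 2 are WT-only and the next 2 KO-only. The last is the KO-only region with the largest −log10 q of any peak in the comparison. Capitals mark matches, on either strand, to GGAATG (TEAD), TGANTCA (AP-1) or ATCAAAG (TCF/LEF).
122 kb from AKR1E2, chr10:4662828-4663127: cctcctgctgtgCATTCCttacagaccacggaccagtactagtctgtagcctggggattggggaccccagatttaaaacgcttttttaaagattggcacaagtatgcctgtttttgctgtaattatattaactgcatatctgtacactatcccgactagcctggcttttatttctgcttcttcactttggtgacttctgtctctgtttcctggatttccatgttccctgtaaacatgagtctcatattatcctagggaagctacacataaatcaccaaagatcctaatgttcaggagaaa
RAD51B intron, chr14:68140387-68140686: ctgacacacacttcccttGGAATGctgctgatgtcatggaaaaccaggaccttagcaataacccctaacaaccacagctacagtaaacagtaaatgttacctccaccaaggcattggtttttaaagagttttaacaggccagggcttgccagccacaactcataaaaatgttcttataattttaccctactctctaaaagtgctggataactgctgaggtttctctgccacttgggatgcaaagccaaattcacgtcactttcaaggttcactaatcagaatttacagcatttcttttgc
MYO1A intron, chr12:57031790-57032089: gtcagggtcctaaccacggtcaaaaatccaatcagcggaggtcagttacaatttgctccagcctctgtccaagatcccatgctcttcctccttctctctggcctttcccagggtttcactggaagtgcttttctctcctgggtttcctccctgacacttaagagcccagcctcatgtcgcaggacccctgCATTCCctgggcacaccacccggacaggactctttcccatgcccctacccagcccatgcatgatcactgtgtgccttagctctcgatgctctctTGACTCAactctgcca
161 kb from NR3C1, chr5:143596867-143597166: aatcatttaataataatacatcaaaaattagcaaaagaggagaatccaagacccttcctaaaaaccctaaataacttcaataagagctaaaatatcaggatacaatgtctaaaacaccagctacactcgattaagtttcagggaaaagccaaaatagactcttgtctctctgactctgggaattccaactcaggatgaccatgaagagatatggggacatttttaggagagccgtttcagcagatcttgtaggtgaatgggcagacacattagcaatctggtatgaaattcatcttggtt
503 kb from PROS1, chr3:93470474-93470773: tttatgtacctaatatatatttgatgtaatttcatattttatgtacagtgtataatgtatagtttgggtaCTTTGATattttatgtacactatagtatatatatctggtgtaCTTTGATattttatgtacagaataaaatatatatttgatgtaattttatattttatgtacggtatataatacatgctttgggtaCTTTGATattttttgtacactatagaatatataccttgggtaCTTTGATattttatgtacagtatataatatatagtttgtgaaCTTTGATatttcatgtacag
The windows near AKR1E2 and in RAD51B each held 1 TEAD match, the MYO1A window held 1 TEAD and 1 AP-1 match, and the window near NR3C1 held none of the searched motifs. The chromosome 3 window held 5 TCF/LEF matches and was unlike the others in composition, with 22.3% GC. Shifted by 126 bases, it was identical to itself at 82.8% of positions, against a median of 33.0% over shifts of 20 to 150 bases.

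Fewer peaks and fewer SEs were listed in KO than in WT cells, and the difference did not exceed what 2 pairs can show. The log2 ratio of KO to WT peak numbers was -0.13 for the A libraries and -1.67 for the B libraries (mean -0.90 ± 1.09 SD, n = 2 pairs; two-sided exact permutation test within letter, p = 0.5, the smallest value it can give). SE numbers were 721 in WT A, 453 in WT B, 400 in KO A and 187 in KO B. Both KO libraries held fewer SEs than both WT libraries, with a log2 ratio of -0.85 in A and -1.28 in B (mean -1.06 ± 0.30 SD, n = 2 pairs; exact permutation p = 0.5). Per 1000 peaks the 2 pairs went opposite ways, since KO A had 21.8 SEs against 35.8 in WT A while KO B had 30.7 against 23.4 in WT B.

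**Figure D1:**
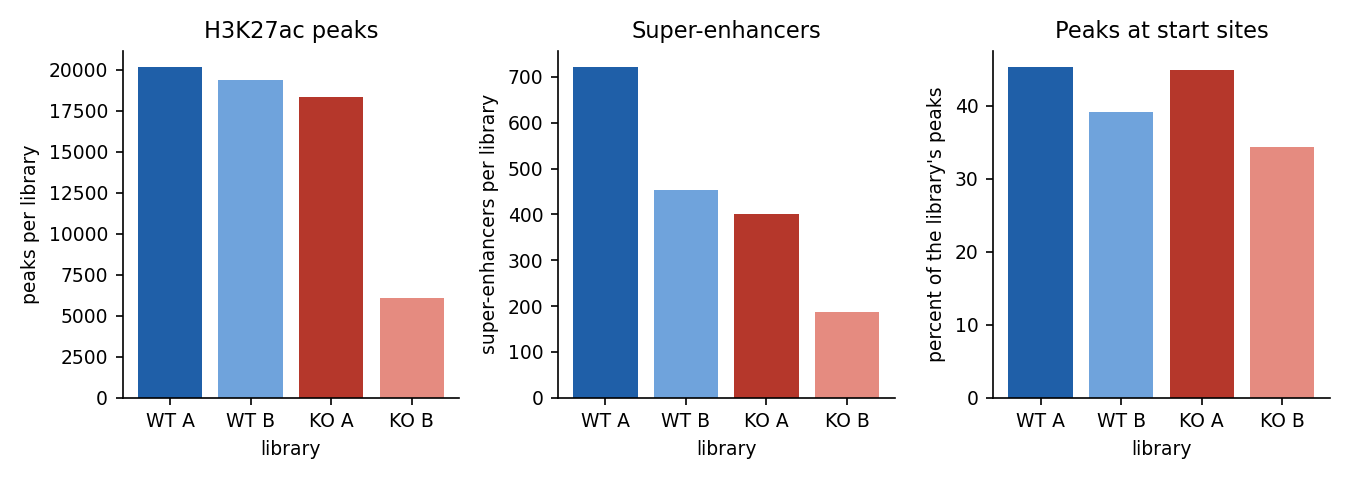
Number of H3K27ac peaks, number of SEs and percent of peaks within 1 kb of a protein-coding start site in each library, with 1 bar per library and no error bars. KO B holds 6083 peaks, the fewest, and both KO libraries hold fewer SEs (400 and 187) than both WT libraries (721 and 453).

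The share of regions at promoters was set beside that of all merged regions, with no test. Of the 2025 WT-only regions, 923 (45.6%, 95% Wilson interval 43.4 to 47.8) came within 1 kb of a protein-coding start site. The same class took 62 of 183 KO-only regions (33.9%, interval 27.4 to 41.0), 39.1% of all merged regions and 46.8% of those called in all 4 libraries. The intervals cover counting error only. The order of the 2 sets depended on the WT libraries: without WT A the shares were 29.9% for WT-only and 51.2% for KO-only regions, and without WT B 36.7% and 41.1%. Without KO A they were 54.2% and 24.0%, and without KO B 45.8% and 30%. Introns away from start sites held 25% of WT-only, 29.5% of KO-only and 26.5% of all merged regions. Intergenic sites over 50 kb from a protein-coding start site held 12%, 15.8% and 13.6%. The median distance to a start site was 2.53 kb for WT-only, 8.87 kb for KO-only and 4.79 kb for all merged regions. Across whole lists, start-site peaks made up 45.2% in WT A, 39.2% in WT B, 44.9% in KO A and 34.3% in KO B. The difference between KO and WT was -0.34 percentage points in A and -4.88 in B (mean -2.61 ± 3.21 SD, n = 2 pairs; exact permutation p = 0.5), and it turned to 2.69 without KO B and to 0.42 without WT A.

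Peak heights of both sets were ordinary for their lists and lower than at regions shared by all libraries. Height was taken as the summit fold, which divides the pileup at the summit by its local background, each plus 1. WT-only regions had a median of 3.93 in WT A and 3.80 in WT B, against 3.95 and 3.79 over all merged regions. KO-only regions had a median of 3.69 in KO A and 4.16 in KO B, against 3.69 and 4.46. Regions called in all 4 libraries were higher, with medians of 4.76, 4.53, 4.52 and 4.66 in WT A, WT B, KO A and KO B. Higher peaks are called more readily, so this difference follows in part from the definition. Each region took its highest fold, and the median width was 1750 bp, against 709 bp for WT-only and 543 bp for KO-only regions. The part of width was not tested. Of the WT-only regions, 561 (27.7%) had a mean fold below the 3.58 that KO B needed over its genome-wide background, and 103 (5.09%) lay below the corresponding fold of KO A. Some members lay beside a peak of the other genotype: 415 WT-only regions (20.5%) had a KO peak within 500 bp, and 47 KO-only regions (25.7%) had a WT peak that close. For these counts and those below the callable fold, the share over all regions was not computed, so they are not read as traits of the members. At the edge of the WT-only definition, 3938 further regions were called in both WT libraries and in KO A but not KO B.

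The WT-only start sites of highest fold are given first. At ZBTB7A, which encodes a zinc finger repressor, the fold was 5.99 in WT A and 6.37 in WT B. EPRS1, a glutamyl-prolyl-tRNA synthetase, reached 6.17 and 5.45, and PUM3, a nucleolar RNA-binding protein, 6.25 and 4.96. REEP4, which shapes the endoplasmic reticulum in mitosis, had 6.49 and 6.20. In the other settings the EPRS1 region was found in all 6 WT libraries and 1 KO library, and ZBTB7A in 5 and 3. The other start sites chosen by fold were REXO1 (5.01 and 6.99), SNAP47 (6.59 and 4.98), GDA, a guanine deaminase (4.67 and 6.62), and ZMYM6 (6.64 and 4.64).

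Of the distal WT-only regions, the highest was in CACNA2D4, a calcium channel subunit gene, 14.2 kb from the nearest start site, with folds of 6.74 in WT A and 6.99 in WT B. The intronic region of RAD51B, a homologous recombination gene, lay 270 kb from a start site and had folds of 5.05 and 7.15. The region 6.51 kb from MYO1G had 6.81 and 5.55. The intergenic region 122 kb from AKR1E2 was called at 5.45 and 6.48, and in the other settings by all 6 WT libraries and no KO library. The last, 1467 kb from SPATA31A6, had 5.60 and 6.21, and the mapping of reads at that region was not analysed. REXO1 and RAD51B were higher in WT B while ZMYM6 and MYO1G were higher in WT A, so the order within the group is not resolved.

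KO-only start sites included H3C6, a histone H3 gene, with a fold of 6.46 in KO A and 4.68 in KO B. PDHX, a component of the pyruvate dehydrogenase complex, had 3.66 and 6.35, and PARK7, an oxidative stress sensor, 3.31 and 6.36. FOXD2, a forkhead factor, had 4.73 and 5.23, and AHNAK2 had 4.63 and 5.17. NOP10, an H/ACA snoRNP protein, had 4.35 and 5.17, and ODC1, the first enzyme of polyamine synthesis, 4.10 and 5.11. None of these 7 was restricted to KO cells elsewhere: outside the comparison each was called in 3 to 6 of the 6 WT libraries and in 2 to 5 of the 6 KO libraries.

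Distal KO-only regions were led by one 57.4 kb from HGSNAT, whose fold was 4.11 in KO A and 10.6 in KO B, and which 1 WT and 5 KO libraries of the other settings also called. A region overlapping CERS1, GDF1 and UPF1, of which CERS1 encodes a ceramide synthase, had folds of 5.69 and 6.80, and the intronic region of HIC2 had 5.26 and 6.36. The region 161 kb from NR3C1, the glucocorticoid receptor gene, had 5.65 and 5.42. The MYO1A intronic region, 2.80 kb from TAC3, had 4.42 and 6.36, and the region 21.1 kb from FBXW10 had 3.55 and 6.76. Of these last 5, none was called in more than 1 of the 6 other KO libraries. The other WT and KO libraries calling them numbered 1 and 0 for HIC2, 2 and 0 for NR3C1 and 2 and 1 for FBXW10. For CERS1 and MYO1A they numbered 0 and 0.

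**Figure D2:**
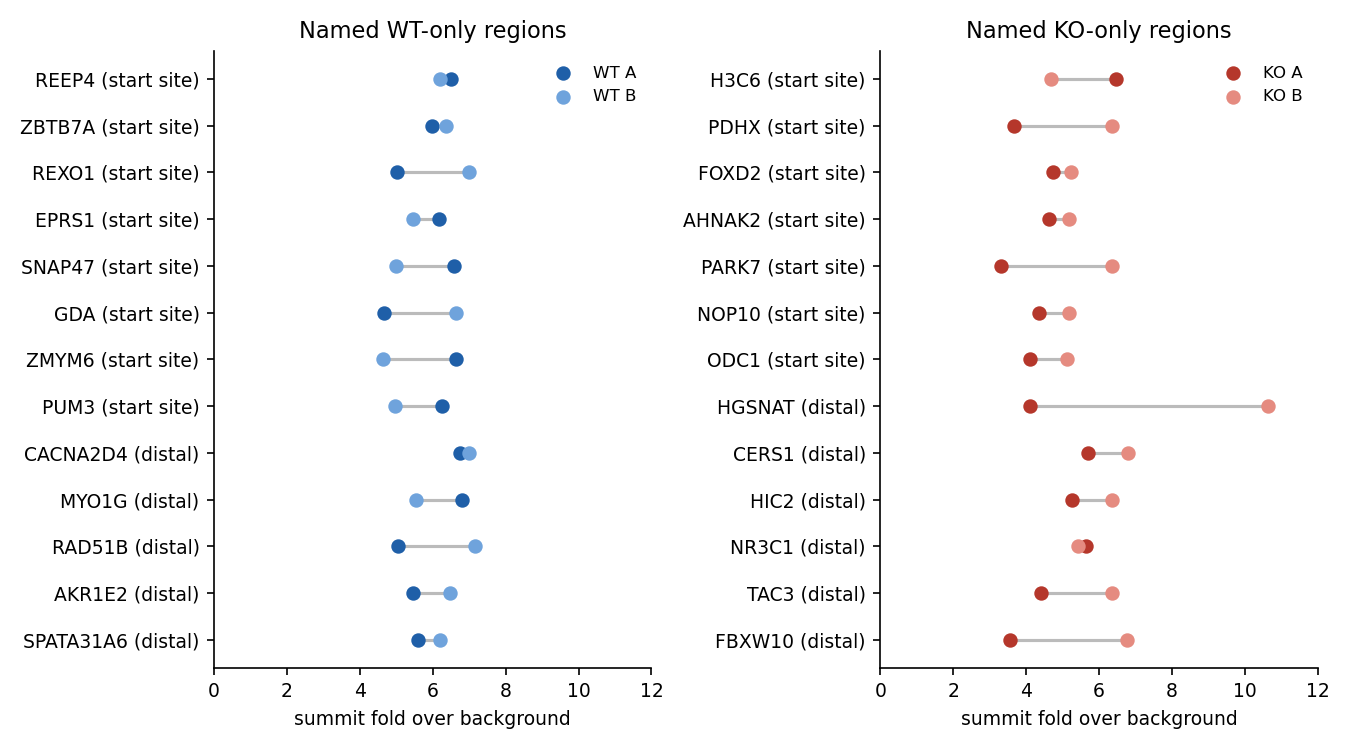
Summit fold over local background (x axis) of 13 WT-only and 13 KO-only regions among those with the highest mean fold at start sites and at distal sites, labelled by nearest gene. Each point is the value in 1 calling library and the line joins the 2 libraries; most lie between 3 and 7, and the region near HGSNAT reaches 10.6 in KO B.

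The WT-only SE regions contained peaks in KO cells as well. SEs were built from the peaks of the same library, so a lower number of KO peaks inside them follows in part from the definition, and the numbers are a description. Over the 76 regions the summed number of peaks was 350 in WT A, 423 in WT B, 180 in KO A and 82 in KO B. KO A had no peak in 3 of the 76 and KO B had none in 30. Both KO libraries held fewer peaks than both WT libraries in 63 of 76, compared with 309 of all 949 SE regions. The low peak number of KO B moves with this count and its part was not tested.

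The SE at ELF3, an epithelial ETS factor, extended over 58.1 kb in WT A and 20.3 kb in WT B, and contained 14 and 15 peaks there against 6 in KO A and 2 in KO B. In the SE across CAV2, which encodes a caveolin, the numbers were 14, 14, 5 and 4 in WT A, WT B, KO A and KO B. Next to CYP24A1, the vitamin D 24-hydroxylase gene, they were 9, 8, 3 and 1. The SE at SFN and ZDHHC18, where SFN encodes the p53-induced checkpoint protein 14-3-3σ, held 9, 7, 5 and 2 peaks. The SPATS2 SE held 8, 8, 3 and 2, and that near ELFN2 held 7, 6, 3 and 0. In the other settings the ELF3 SE appeared in all 6 WT libraries and 4 of the KO libraries, and the SFN SE in 1 of each.

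Other WT-only SEs, named after their values were seen, lay at DDIT4, a stress-induced mTORC1 inhibitor (8, 9, 5 and 1 peaks), and near MYC. The SE near MYC, of 7.35 kb and 115 kb from its start site, held 3, 4, 2 and 0 peaks. It appeared in 5 WT and 0 KO libraries of the other settings, and the DDIT4 SE in 5 and 1.

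The 5 KO-only SE regions were between 7.25 and 20.3 kb long, against a median of 12.2 kb for all SE regions. Their peak numbers too follow in part from the definition. The longest, in TTC34, covered 20.3 kb in KO A and 8.63 kb in KO B and held 2, 3, 5 and 4 peaks in WT A, WT B, KO A and KO B. In the other settings it appeared in 0 WT and 4 KO libraries. An ATXN1 SE held 1, 2, 4 and 4 peaks, and the SE in CDK6, the cyclin D-dependent kinase gene, held 0, 2, 4 and 4. The SEs in AP1S3 and FAM241A held 2, 2, 4 and 4 and 2, 3, 4 and 5. For AP1S3 the peak coverage was similar on both sides, 5.00 and 5.34 kb in WT against 5.90 and 3.41 kb in KO, and that SE appeared in all 12 libraries of the other settings.

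**Figure D3:**
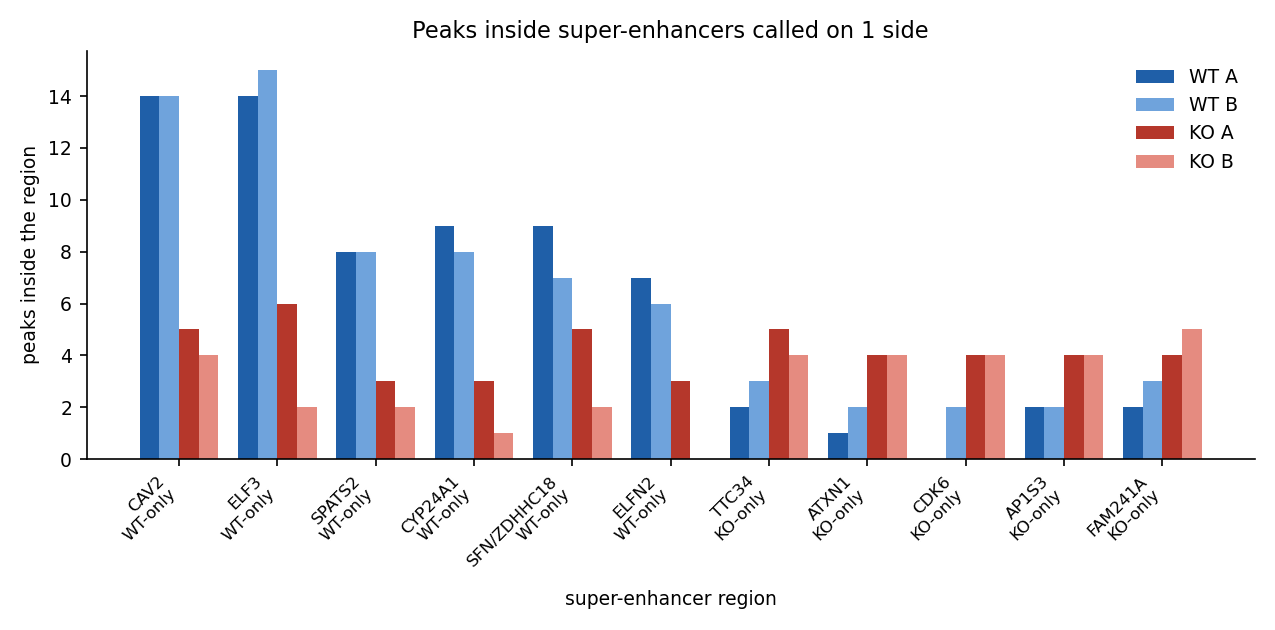
Number of peaks (y axis) inside each of the 6 longest WT-only and the 5 KO-only SE regions, with 1 bar per library. In the WT-only SEs the KO bars are lower than both WT bars, from 14 and 15 peaks down to 6 and 2 at ELF3, and in the KO-only SEs they are higher, by 1 to 4 peaks.

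Genes were then read by list. A start site was WT-only for 794 of 19962 protein-coding genes (3.98%) and KO-only for 41 (0.205%), and 1532 (7.67%) had a start-site peak in all 4 libraries. An SE overlapped the gene in both WT and neither KO library for 63 genes (0.316%) and the reverse for 4 (0.02%). None of the 18 lists had a gene with a KO-only start site. Of all 19962 genes, 10284 had no start-site peak in any of the 4 libraries. So did 3 of 16 AP-1 factors, 1 of 28 p53 targets and 6 of 12 platinum transport genes. The all-gene shares include such genes, and their part in the differences from the lists was not tested. The lists are small, and no test was run on them.

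Most p53 targets had acetylated start sites in both genotypes. Of 28 genes, 18 (64.3%) were called in all 4 libraries, 0 were WT-only and 0 KO-only. CDKN1A, the p21 cell cycle inhibitor, had folds of 4.13 in WT A, 5.82 in WT B, 6.68 in KO A and 8.35 in KO B. For TNFRSF10B, a TRAIL death receptor, they were 4.75, 3.42, 6.43 and 6.88, and for MDM2, the p53 ubiquitin ligase, 5.15, 4.30, 5.55 and 4.0. KO values exceeded both WT values at CDKN1A and TNFRSF10B and overlapped them at MDM2. The genes given in this paragraph were picked after their values were seen. The libraries differ in depth, and the start-site folds of single genes were not tested. Of the 16 BCL2 family genes, 5 were called in all 4 libraries, among them BAX (3.21, 5.70, 5.86 and 6.30) and BBC3, which encodes PUMA (8.62, 3.57, 3.92 and 4.71), and none was WT-only or KO-only.

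AP-1 factors were called in all 4 libraries for 1 of 16 genes and WT-only for 3 (18.8%). JUN, also an FBXW7 substrate, had a start-site fold of 5.71 in WT A and 5.24 in WT B and no call in KO A or KO B. The small MAF genes MAFF (4.17 and 4.64) and MAFK (5.80 and 3.60) were called in the same 2 libraries. In the other settings JUN and MAFK were each found in 5 WT and 2 KO libraries, and MAFF in 5 and 5. FOSL1 was the gene called throughout, at 7.07, 4.43, 6.02 and 3.51. ATF3, a stress-induced member, had an SE in both WT and neither KO library, although its start site was called in WT A (3.93), KO A (4.25) and KO B (3.76).

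Among 21 FBXW7 substrates, 9 were called in all 4 libraries and 2 were WT-only. MYC had 4.94 and 5.16 in WT against 4.36 and 4.42 in KO, and CCNE1, encoding cyclin E1, 4.67 and 4.15 against 3.04 and 4.43. Besides JUN, the WT-only gene was KLF2, a Krüppel-like factor also listed with the HDAC4 and MEF2 targets (4.06 and 4.43), found in 4 WT and 0 KO libraries of the other settings. Of the 13 genes of the class IIa HDAC and MEF2 list, 2 were called in all 4 libraries, MEF2D (5.54, 4.28, 3.98 and 5.97) and NR4A2 (6.54, 4.30, 6.68 and 3.73).

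The WT-only share of the remaining pathway lists, cell type markers aside, ran from 0 to 14.3% of their genes, against 3.98% of all protein-coding genes. NF-kB targets (7.14%), G1/S control (5.26%) and intestinal factors (5%) lay above that value on 1 gene each. The YAP and TEAD list (14.3%), DNA repair (14.3%), glycolysis (13.6%) and the EGFR family (10.0%) also lay above it, on 1 to 3 genes each. These genes were TEAD1 (6.05 and 2.80) and TEAD2 (3.30 and 3.76) among 14 YAP and TEAD genes, and CHEK1 (3.80 and 3.43), CHEK2 (4.48 and 2.80) and ERCC5 (4.36 and 3.60) among 21 DNA repair genes. Glycolysis had HK1 (3.05 and 4.11), PGK1 (3.96 and 3.88) and PDK1 (5.69 and 4.04) of 22, and G1/S control had CDK4 (3.54 and 4.32) of 19. The intestinal factor EHF (4.69 and 2.89), the NF-kB target BIRC3 (4.94 and 3.93) and the EGF-like ligand BTC (4.0 and 2.98) were the single WT-only genes of lists of 20, 14 and 10. An SE called in both WT and neither KO library overlapped ELF3 and EHF among the intestinal factors and SMAD3 among 12 TGF-beta genes. CDK6 was the list gene with an SE in both KO and neither WT library, and its start site was called throughout (3.24, 3.24, 5.47 and 4.04). WNT targets, NOTCH pathway genes, platinum transporters and TGF-beta genes had no WT-only start site.

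**Figure D4:**
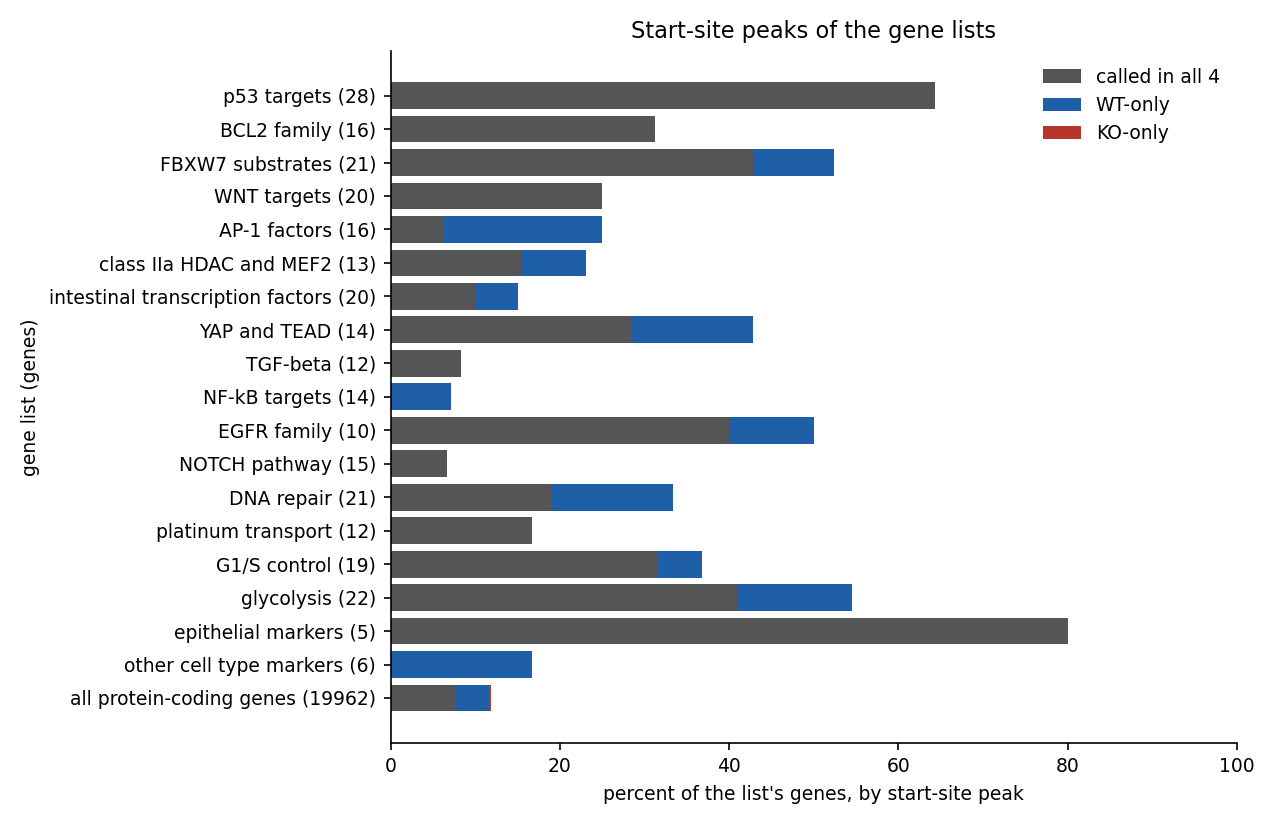
Percent of the genes of each list (x axis) with a start-site peak in all 4 libraries, in both WT and neither KO library (WT-only) or the reverse (KO-only), stacked, with the number of genes in brackets. p53 targets reach 64.3% called in all 4 libraries with no WT-only gene, and AP-1 factors show 18.8% WT-only against 3.98% of all protein-coding genes. The latter include 10284 genes with no start-site peak in any of the 4 libraries.

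The tissue markers and the targeted genes were checked. Of 5 epithelial markers, EPCAM, KRT8, KRT18 and KRT19 had start-site peaks in all 4 libraries, and CDH1 in WT A and KO A. Of 6 markers of fibroblasts, blood and endothelium, 5 had no start-site peak in any of the 4 libraries. The exception was the collagen gene COL1A1, which was WT-only (4.65 and 5.37) and was found in all 6 WT libraries and 3 KO libraries of the other settings. An H3K27ac peak does not report a deletion or silencing: the FBXW7 start site had a peak in 7 WT and 3 KO libraries of 8 each, including KO A (4.94), and the HDAC4 start site in 6 and 3.

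At the 2795 regions called in all 4 libraries, peak height was compared between genotypes. In a limma fit on quantile-normalized log2 summit fold with replicate letter as a term, 1 region was higher in KO (0.0358%) and 1 was lower (0.0358%) at an adjusted p below 0.05. The normalization sets the median difference near 0, and the SD of the log2 difference over regions was 0.30, so a shift shared by all peaks cannot be seen in this fit. The higher region lay at chr10:41125046-41125745, 1469 kb from ZNF33B, with folds of 1.93 and 1.66 in WT against 1.93 and 3.66 in KO (log2 difference 0.48 ± 0.11 SE, limma adjusted p = 0.0308). The lower one lay at chr21:8230305-8231081, 2290 kb from TPTE, with 3.00 and 3.27 in WT against 2.29 and 1.76 in KO (-0.65 ± 0.15 SE, limma adjusted p = 0.0355). Its −log10 q was 45.9 and 53.2 in WT A and WT B despite these low folds. The mapping of reads at these 2 regions was not analysed, and whether their values reflect H3K27ac was not tested. In the region on chromosome 10, KO A (1.935) was close to WT A (1.927) and KO B alone was clearly higher. In that on chromosome 21 both KO values lay below both WT values. The 2 calls were lost without the replicate block (0 regions, smallest adjusted p = 0.480) and after median centring in place of quantile normalization (0 regions, smallest adjusted p = 0.617).

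The next regions in the fit did not pass the threshold. Near PCDH1, a protocadherin gene, the fold was 4.45 and 2.89 in WT against 6.62 and 8.84 in KO (limma adjusted p = 0.0630). Near OR10H1 it was 4.31 and 3.03 against 7.27 and 6.99, at APOBEC3H, a cytidine deaminase gene, 3.39 and 3.67 against 6.57 and 7.43, and near SLC4A3 3.02 and 3.08 against 6.42 and 6.22. In the other direction, the region near KRT23, a type I keratin gene, had 7.94 and 9.13 in WT against 5.48 and 3.52 in KO (limma adjusted p = 0.0958). At LDHA, the lactate dehydrogenase A gene, the values were 6.86 and 8.03 against 3.95 and 4.23. An intronic region of TNFAIP8 had 6.22 and 8.09 against 4.54 and 3.38, and a second one on the short arm of chromosome 21, at chr21:8419990-8420698, had 3.39 and 3.36 against 2.01 and 2.46. In each of these 8 regions the 2 genotypes did not overlap.

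The 12 libraries of the other settings were not used to define the members, and they were read next. WT-only regions were called in 64.8% to 85.2% of cases in 5 of the 6 other WT libraries and in 32.7% in WT esiCT OXPT B, above the share of all merged regions in each of these 6. The other KO libraries called between 1.04% and 56.3% of them, above the share of all merged regions in 3 of the 6, among them both KO esiCT OXPT libraries (56.3% against 47.7% in A, 18.1% against 16.8% in B). KO-only regions were called in 14.2% to 56.3% in the other WT libraries, below all merged regions in each of the 6, and in 5.46% to 60.7% in the other KO libraries, where their share exceeded that of the WT-only regions in each of the 6. Of the WT-only regions, 1841 (90.9%) were called in more of the other WT than KO libraries and 34 in more KO libraries, compared with 62.8% and 5.61% of all merged regions. The 3938 regions called in both WT libraries and KO A but not KO B had similar shares, 90.0% and 1.78%. The preference for WT libraries was thus not particular to the WT-only regions. Of the KO-only regions, 93 (50.8%) were called in more WT and 36 (19.7%) in more KO libraries. The list lengths of these libraries, from 1752 peaks in KO esiHDAC4 UNT B to 27927 in WT esiCT UNT A, move with these shares, and their part was not tested.

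**Figure D5:**
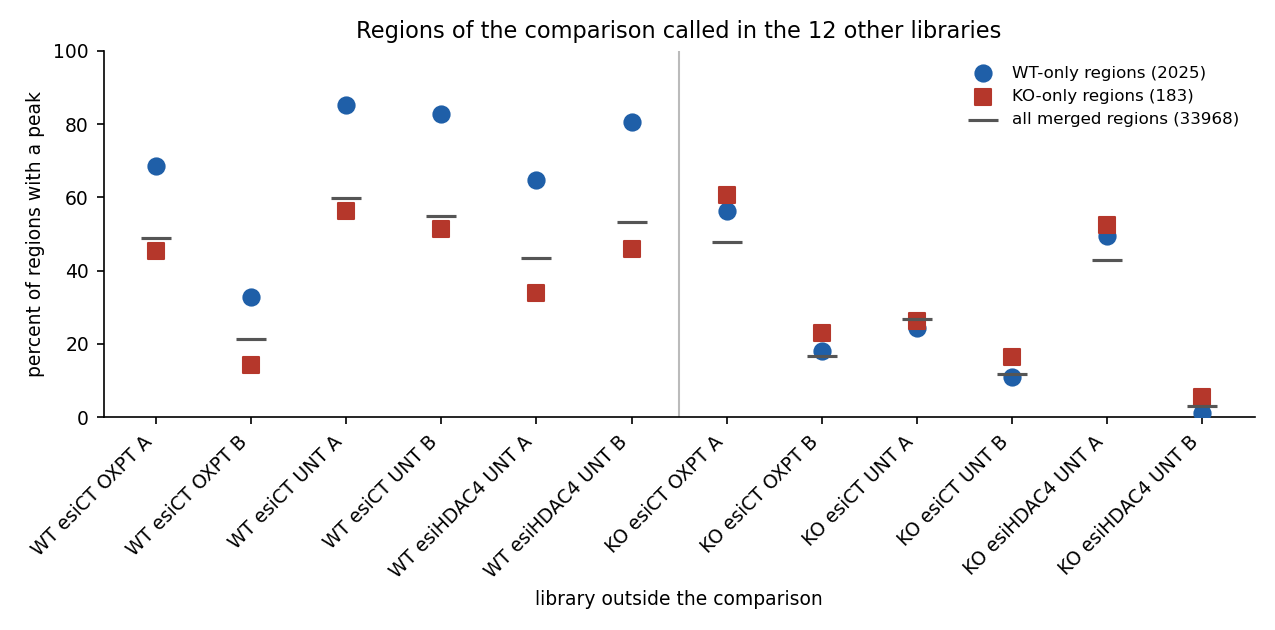
Percent of WT-only regions (circles), KO-only regions (squares) and all merged regions (dashes) with a peak in each of the 12 libraries outside the comparison, WT on the left and KO on the right of the line. WT-only regions lie above KO-only regions in all 6 WT libraries, at 85.2% against 56.3% in WT esiCT UNT A, and below them in all 6 KO libraries.

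Calls in WT and KO libraries of these 12 were also compared region by region with an exact conditional test that kept the letters as strata. After Benjamini-Hochberg adjustment it called 0 of 25751 tested regions (0%; smallest adjusted p = 0.665). At an unadjusted p below 0.05, 179 of 1972 tested WT-only regions (9.08%) were called more in WT and 0 more in KO, against 754 (2.93%) and 1 of all tested regions. Of 157 tested KO-only regions, 1 was called more in WT and 1 more in KO. The smallest p the test can give is 0.005, and no region could pass the adjustment unless many reached it.

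The same genotype call recurred to different extents in the other settings. In untreated esiCT cells, 996 of the WT-only regions (49.2%) were again called in both WT and neither KO library, against 22.5% of all merged regions, and 1 was called the other way. In untreated esiHDAC4 cells it was 454 (22.4%), against 8.14% of all merged regions. In esiCT cells with OXPT it was 142 (7.01%), against 1.95%, and 33 were called in both KO and neither WT library. Among the KO-only regions, 15 of 183 (8.20%) were KO-only in esiCT OXPT too, against 1.30% of all merged regions, and 37 (20.2%) were instead WT-only in esiCT UNT. Of the 76 WT-only SEs, 29 (38.2%) were WT-only in esiCT UNT, against 22.3% of all 949 SE regions, and 14 (18.4%) in esiHDAC4 UNT, against 10.0%. In esiCT OXPT 0 were WT-only, against 4 of all SE regions, and 9 were KO-only, against 61.

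A set of 44 WT-only regions, picked for this pattern, was found in every other WT library and in no other KO library, as were 126 of all 33968 merged regions. It held 19 start sites and 25 distal regions. The start sites included PPP1R15A, which encodes the stress-induced eIF2α phosphatase subunit GADD34 (5.02 in WT A and 3.81 in WT B), and TRIB3, another stress-induced gene (4.82 and 2.59). VEGFA (3.60 and 3.67), LDHA (4.06 and 4.64) and DNAJB1, an HSP40 chaperone gene (4.07 and 3.92), were among them. The LDHA entry is a separate region next to the shared one described above. A second RAD51B intronic region (5.02 and 5.25) and one in the CAV2 intron (4.51 and 4.30) were among the distal ones.

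The KO-only regions held 3 that no other WT library and at least 4 other KO libraries called, again picked for this pattern, which 7 of all merged regions showed. An intronic region of TTC34, at chr1:2748308-2749131, inside the KO-only SE, had folds of 4.2 in KO A and 4.19 in KO B. A region at chr22:11212288-11212966, 4315 kb from OR11H1, had 3.77 and 5.57, and the mapping of reads there was not analysed. The third was the AT-rich chromosome 3 region shown above.

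That region, chr3:93470399-93470822, was called by genotype throughout the series. All 8 KO libraries called it and none of the 8 WT libraries did, where the nearest peak lay at least 453 kb away. In KO A its −log10 q was 4519 at a fold of 3.06, and in KO B 3456 at a fold of 3.03. The next largest −log10 q in those lists was 114 and 78.1. In the other 6 KO libraries it ranged from 1045 to 4837, at folds between 2.21 and 3.57. A fold near 3 with such a q-value implies very many reads, about 23400 at the summit over a local background of 7640 in KO A, and 18200 over 6020 in KO B. Over the 12 libraries outside the comparison it was the 1 region of all tested with an unadjusted p below 0.05 and more calls in KO (exact conditional test p = 0.005, the smallest possible; adjusted p = 0.665). The lists hold values at called peaks only, so the read number in WT cells, the input reads there and the mapping of this repetitive sequence were not analysed here. The values describe what the peak caller listed, and whether they reflect H3K27ac was not tested.

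Sequence composition around the summits was read as GC content and as motif matches. The median GC content of 300 bases was 48.3% for WT-only, 50.3% for KO-only and 51.0% for all merged regions, and it was 52.7%, 47.3%, 53% and 46.7% for the full lists of WT A, WT B, KO A and KO B. At distal regions alone the median was 44.7% for WT-only, 48.7% for KO-only and 48% for all merged regions. Distal regions called in all 4 libraries had a lower median still. At start sites the median was 53.3% for WT-only, 55.7% for KO-only and 57% for all merged regions. The part of GC content in the motif shares was not tested. Among distal regions, TGANTCA, the AP-1 motif, was found in 10.4% of 1102 WT-only, 6.61% of 121 KO-only and 8.95% of 20681 merged regions. GGAATG was found in 15.4%, 19.8% and 16.0%, and TTTATNG, a CDX motif, in 18.4%, 13.2% and 14.3%. ATCAAAG was found in 4.17%, 7.44% and 3.58%, where the KO-only count was 9 regions including that on chromosome 3. CACGTG, an E-box, was in 3.72%, 1.65% and 4.26%. The 2 forms of the MEF2 motif were in 0.817% and 0.454% of WT-only, in 0 KO-only and in 0.479% and 0.261% of merged distal regions. The shares are descriptions of letters in these windows, with no test.

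WT-only regions were spread over all chromosomes analysed, from 4.57% of the merged regions of chromosome 21 to 8.18% of those of chromosome 13. Neighbouring members within 50 kb formed clusters: 1452 regions stood alone, and the largest clusters held 7. One of these, around KRR1 and PHLDA1 on chromosome 12, spanned 168 kb, and the libraries called 26, 34, 12 and 4 of its 49 merged regions in WT A, WT B, KO A and KO B. The other lay in NSMCE2 on chromosome 8 (13, 19, 5 and 3 of 21). Clusters of 6 lay in PDE4B (15, 23, 12 and 7 of 24) and around ELF3, RNPEP and TIMM17A (11, 10, 2 and 1 of 13), the latter reaching into the ELF3 SE. In 2 shorter clusters of 4 neither KO library called any merged region: in the RAD51B intron (4 and 6 of 6 called in WT A and WT B, over 10.7 kb) and in PCDH7 (4 and 7 of 7). Of the KO-only regions 176 stood alone and the largest cluster held 3. Cluster sizes were not computed over all merged regions, so they are not read as a trait of the members.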

How the data were processed

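H3K27ac ChIP-seq lists from 16 HCT-116 libraries were used, grouped by the labels. Per the submitters' processing notes and methods, the authors used Trimmomatic 0.39 for trimming, Bowtie2 2.4.4 for alignment to hg38, handled alignments with SAMtools 1.18, called peaks per library with MACS2 2.2.7.1 and joined SEs with ROSE. In the deposited lists the fold is the ratio of summit to background pileup, p-values and q-values are −log10 values, and the score is an integer made from q. Deposited SE lists give positions and may include SEs without H3K4me1. The 4 lists held 64071 peaks and 1771 SEs, and 157 peaks and 10 SEs on other contigs were left out. Read totals were not used here: background and summit reads were solved from fold and p for 100% of peaks of the 4 libraries below a −log10 p of 60, and for the chromosome 3 region by a large-count Poisson approximation. Start sites were those of GENCODE 44 protein-coding genes (window 1 kb). Clusters joined same-side regions with gaps below 50 kb.

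List numbers were compared by exact permutation within replicate letter, because the study's model holds replicate. Two-sided tests on 2 pairs cannot go below 0.5. Shared regions were fitted with limma 3.58.1 on quantile-normalized log2 fold, and presence was tested by an exact conditional test, both adjusted over all regions and tested on simulated data. For genes whose start site had several peaks, the highest fold was given. Members and gene lists were chosen with earlier results of these data known. Named regions were, per side, the 8 start-site and 6 distal regions of highest mean fold and the 6 longest SEs. They also held the 5 regions per direction of smallest adjusted p in the shared fit, and list genes called on 1 side only. Apart from the targeted genes and cell type markers, other named genes and regions were picked after their values were seen. A few items chosen by this rule are not reported here. Alternatives changed the q threshold, depth, list length, overlap, start-site window, centring and libraries.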

Additional observations from a re-analysis of the deposited data

Results flagged for a closer look

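The KO to WT ratio of SE numbers went opposite ways with and without HDAC4 silencing in OXPT-treated cells. It was lower in KO in both pairs after esiHDAC4 (mean log2 ratio -1.06) and higher in KO in both pairs after esiCT (394 and 284 SEs in WT against 930 and 435 in KO, mean 0.93), a difference of -1.99 on the log2 scale. The share of peaks at start sites did the same, with a mean of -2.61 percentage points after esiHDAC4 and 2.44 after esiCT, a difference of -5.05 points. Both were picked because each pair moved one way in one setting and the other way in the other, and the differences were not tested.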

How the results depend on the processing

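The difference in peak number kept its sign under every alternative (mean log2 ratio -0.84 after scaling summit reads to KO B, -1.16 at −log10 q of at least 5). Without the replicate block its mean stayed at -0.90 (exact permutation p = 0.333), and the SE ratio at -1.06 (p = 0.333). Leaving out 1 library gave -1.70 to -0.11 for peaks, -1.61 to -0.51 for SEs and -7.90 to 2.69 points for the start-site share, which turned to 0.42 without WT A and 2.69 without KO B. At −log10 q of at least 5, WT-only and KO-only regions numbered 812 and 66, and in lists of equal length 571 and 379, and 10.0% and 5.46% (equal length, 9.63% and 26.2%) of the original members remained. Leaving out 1 library gave 2261 to 9493 WT-only and 477 to 5935 KO-only regions, 83 to 424 WT-only and 11 to 75 KO-only SEs, and start-site shares of 29.9% to 54.2% and 24.0% to 51.2%. The WT-only share was 51.2% at the stricter q, 52.2% (KO-only 41.1%) with scaled reads, 50.0% with a 2500 bp window and 36.1% with 1 start site per gene. Among the 886 shared regions with a mean fold of at least 5, the shared-region fit called 2, both higher in KO (smallest adjusted p = 0.00394), and the 2 regions named in the report have lower folds and were not among those tested. It called 0 regions after median centring, without the replicate block or without the mean-variance trend, and 0 to 2 with 1 library left out. The presence test called 0 regions under each of its alternatives (smallest adjusted p 0.439 to 1), with no replicate block included. Of 140 values for the named regions under 5 alternatives, 110 kept the original call difference and 30 moved, 24 of them KO-only. Replicate letters are blocks from the study's model. The causes were not tested.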
